A study of Homo sapiens with 34 samples.

Results

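The genes described here are CDH4, CDH6, CDH8, CDH10, CDH11, CDH13, CDH20 and CDH24, the cadherins other than CDH1, CDH2 and CDH3 that reached a mean of at least 10 CPM (counts scaled by the library total) in some condition of a primitive streak (PS) differentiation series. They were found by their symbols and comprise 9 of the 37951 identifiers in the tables, because CDH4 has 2 identifiers and both were kept. Among 24 identifiers with a CDH symbol and a number, 12 reached this level, and 9 of these belong to the 8 genes. Closest to the threshold on the inside was CDH10, with its highest mean of 13.2 CPM, and closest on the outside was CDH18, with 7.83 CPM. Since the genes were chosen by their levels in these same libraries, the levels and the differences between conditions are a description. A call from the fit over all genes says that a difference exceeded the spread between replicates and is not independent support.

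Cells were ESI017, an established human embryonic stem cell line of wild-type genotype, sequenced in 17 conditions with 2 replicates each. The control (Ctrl) was kept undifferentiated in mTeSR PLUS for 48 h per the labels, so it has no match in time among the 24 h populations. Day 1 began with 1 of 4 factor mixtures. That of DE(a) combined CHIR (CHIR99021, which activates canonical Wnt signaling) at 2 µM with activin at 100 ng/ml, and that of anterior PS (APS) held 4 µM CHIR, 30 ng/ml activin and 20 ng/ml bFGF. For mid PS (MPS), CHIR at 6 µM was given with the same activin and bFGF and with BMP4 at 40 ng/ml, and posterior PS (PPS) cells were given the same mixture without activin. Each of these 4 populations was collected at 24 h, or at 48 h after a second day in 1 of 3 media. DE(b) medium, for definitive endoderm, held 100 ng/ml activin and 250 nM of the BMP inhibitor LDN. PM medium, for paraxial mesoderm, contained bFGF (20 ng/ml), LDN (250 nM) and the activin receptor inhibitor A8301 (1 µM) per the labels. A supplementary legend of the study also lists CHIR in it, and the main text of the study describes Wnt activation on day 2 of this protocol. LM medium, for lateral mesoderm, held 30 ng/ml BMP4, 1 µM A8301 and the Wnt secretion inhibitor IWP2 at 4 µM. Conditions are written as day 1 population and day 2 medium, so PPS-LM cells received PPS factors and then LM medium. All conditions come from a single cell line, and the 2 replicates, which a legend of the study calls biological, are not described by any label as separate cultures, so p-values measure only the spread between these samples.

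Cadherins are transmembrane proteins that hold neighbouring cells together through calcium-dependent contacts between their extracellular domains, and their cytoplasmic tails bind catenins that link the contact to actin. CDH4 (R-cadherin) is a type I cadherin like CDH1 and CDH2, whereas CDH6, CDH8, CDH10, CDH11, CDH20 and CDH24 are type II cadherins, which are often expressed in combinations that differ between neighbouring cell groups of the embryo. CDH13 (T-cadherin) lacks a cytoplasmic tail and is attached to the membrane by a lipid (GPI) anchor. In the vertebrate gastrula, cells that leave the PS exchange CDH1 for CDH2, and CDH11 is widely known as a cadherin of mesenchyme.

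Libraries held from 15522780 to 23439799 estimated counts, and markers followed the labels with exceptions. The definitive endoderm markers SOX17, FOXA2 and CXCR4 summed to between 124 and 722 CPM in DE(b) medium and to between 234 and 335 CPM in PM medium, where CXCR4 alone held from 156 to 335 CPM. FOXA2 was at 2.17 and 11.0 CPM in PPS-DE(b). Paraxial markers TBX6 and MSGN1 were present in every PM library, while MESP2 stayed between 0 and 0.470 CPM there. Lateral mesoderm markers HAND1, FOXF1 and ISL1 summed to at least 451 CPM in LM medium and to at most 39.2 CPM in PM medium. In DE(b) medium their sum reached 110 CPM in PPS-DE(b), where HAND1 was at 100 and 69.3 CPM. PPS-DE(b) also held TBX6 at 49.3 and 52.8 CPM and TBXT, a primitive streak marker, at 108 and 85.6 CPM. The amnion markers GATA3, TFAP2A, VTCN1 and GABRP summed to between 62.8 and 364 CPM in LM medium and to at most 16.02 CPM in DE(b) and 12.6 CPM in PM medium. Within LM medium, VTCN1 was at 5.77 and 9.74 CPM in PPS-LM and GABRP at 31.8 and 51.9 CPM, against 0.233 and 0 CPM and 0.931 and 0.664 CPM in MPS-LM. GATA3 was at 107 and 136 CPM in PPS-LM and 129 and 140.1 CPM in DE(a)-LM, whose amnion sums were 185.5 and 234 CPM. In bulk libraries such as these, fewer cells of a type and less RNA per cell cannot be told apart.

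Each of the 8 genes had its own pattern over the conditions, as the map of mean levels shows. The highest mean was in a PM condition for CDH4, CDH11 and CDH24, in PPS-DE(b) for CDH13 and CDH20, in LM medium for CDH8 and CDH10, and in MPS at 24 h for CDH6. Over the 17 condition means of log2(CPM + 1), the 35 pairs of different genes had Pearson correlations from -0.65 (CDH8 with CDH11) to 0.73 (CDH10 with CDH11), with a median of 0.03. These points share libraries and a common scaling, so the correlations are descriptions.

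**Figure D1:**
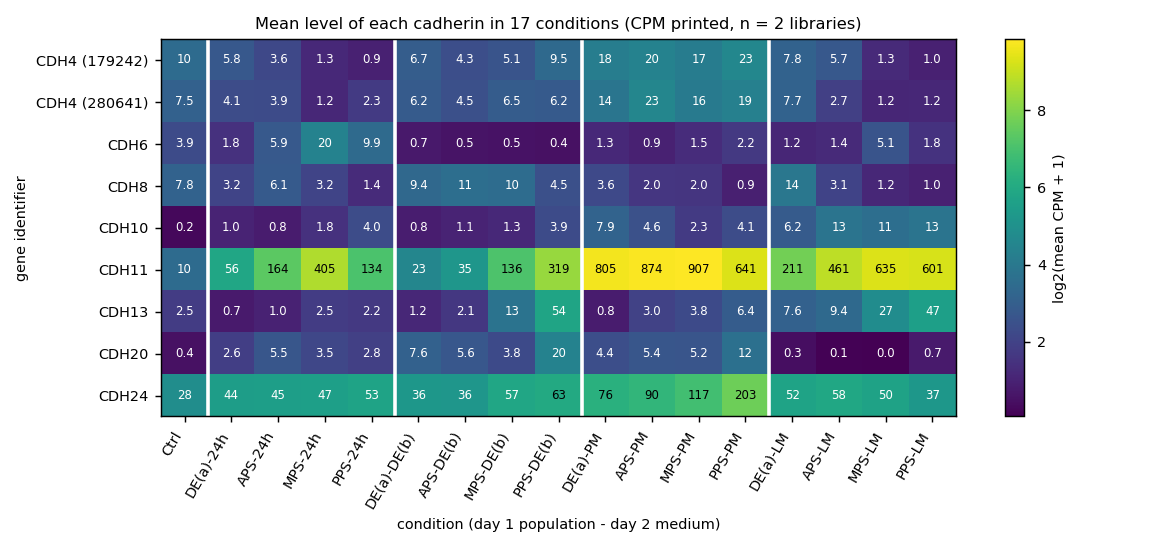
Mean level of the 9 cadherin identifiers (vertical axis, with the last 6 digits of both CDH4 identifiers) in 17 conditions (horizontal axis), coloured by log2(mean CPM + 1) with the mean CPM of 2 libraries printed in each cell. CDH11 is high throughout PM and LM medium, CDH20 is near 0 in LM medium, and CDH4 is highest in PM medium.

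Against the control, the fit called 69 of 144 pairs of an identifier and a treated condition higher and 31 lower, at an adjusted p under 0.05 in edgeR's quasi-likelihood test. Over all genes tested, 18.4% of such pairs were called higher and 16.2% lower, and because the members were chosen by level nothing is read from the difference. CDH10 and CDH11 were called higher in all 16 treated conditions, CDH24 in 13 and CDH20 in 12. CDH8 was called lower in 10 conditions and CDH6 in 9, and neither CDH8 nor the first CDH4 identifier was called higher in any. The 16 comparisons share both control libraries.

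CDH4, the type I member, is annotated on chromosome 20 from position 61252261 to 61940617 on the plus strand of GRCh38 (GENCODE v44, identifier ENSG00000179242). Its second identifier, ENSG00000280641, has no entry in GENCODE v44, and how the authors' quantification divided reads between both cannot be told from the tables, so their sum is given too. The summed level was 19.7 and 15.3 CPM in the control, from 2.39 to 11.3 CPM (median 5.15) at 24 h, from 8.35 to 15.7 CPM (median 13.0) in DE(b), from 22.3 to 51.1 CPM (median 36.2) in PM and from 1.73 to 16.3 CPM (median 5.38) in LM medium. CDH4 was thus lower in every 24 h library than in the control and higher in every PM library than in any library of the other groups. At 24 h it was lower in MPS and PPS, which had BMP4 and the highest CHIR dose, with sums of 11.3 and 8.499 CPM in DE(a), 8.28 and 6.69 in APS, 2.39 and 2.59 in MPS and 3.61 and 2.95 CPM in PPS. The same split appeared in LM medium, at 16.3 and 14.8 CPM after DE(a), 8.98 and 7.96 after APS, 2.22 and 2.80 after MPS and 1.73 and 2.68 CPM after PPS. In both settings the DE(a) libraries lay above the APS libraries and these above every MPS and PPS library. In PM medium all 4 populations overlapped in their sums, from 22.3 and 39.9 CPM after DE(a) to 32.5 and 51.1 CPM after PPS. The second CDH4 identifier reached a mean of 10 CPM only in PM medium, and the first only there and in the control. Their choice therefore favours high levels there.

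Between media, the log2 fold change of the first CDH4 identifier over the 4 populations was -2.74 (SE 0.30) for LM against PM and -1.59 (SE 0.28) for DE(b) against PM, and the second identifier gave -2.83 (SE 0.18) and -1.54 (SE 0.16). PPS differed from DE(a) by -2.93 (SE 0.63) and -2.52 (SE 0.36) log2 units for both identifiers in LM medium, and by 0.41 (SE 0.54) and 0.49 (SE 0.32) in PM medium. The LM differences were called and the PM differences were not. From 24 h to 48 h in PM medium, the CDH4 identifiers rose by 3.60 (SE 0.62) and 3.63 (SE 0.37) log2 units after MPS and by 4.51 (SE 0.65) and 2.995 (SE 0.35) after PPS. The replicates of PPS at 24 h held 1.76 and 0.109 CPM of the first identifier, so this starting level is poorly known. The call among the 24 h populations was lost for the first identifier without DE(a)-24h replicate 1 (adjusted p = 0.0507).

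CDH11, the type II cadherin of mesenchyme, lies on chromosome 16 from position 64943753 to 65126112 on the minus strand. Control libraries held 8.97 and 11.6 CPM. At 24 h the level was 49.8 and 62.4 CPM in DE(a), 168 and 159.5 in APS, 512 and 299 in MPS and 189 and 79.9 CPM in PPS. All 24 h libraries were above both controls, and the populations differed without a steady anterior to posterior order, since MPS was highest and the PPS replicates spread widely. Between PPS and MPS the log2 fold change was -1.67 (SE 0.38), which was called.

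On day 2, PM medium gave the highest mean of CDH11 after every population. PM libraries ranged from 587 to 983 CPM (median 813), and they did not overlap with the DE(b) libraries, which ranged from 21.5 to 323 CPM (median 85.9). In LM medium values ranged from 133 to 718 CPM (median 569) and overlapped with those in PM. The day 1 populations differed in DE(b) medium, where CDH11 was 23.8 and 21.5 CPM after DE(a), 36.4 and 34.3 after APS, 136 and 136 after MPS and 315 and 323 CPM after PPS. These 4 pairs did not overlap, and the log2 fold change of PPS over DE(a) was 3.86 (SE 0.42). FOXA2 went the other way across the same series, from 86.0 and 125 CPM in DE(a)-DE(b) to 2.17 and 11.0 CPM in PPS-DE(b). CXCR4 also fell, from 168 and 154 CPM to 9.25 and 17.5 CPM. SOX17 did not follow this order. It was at 330 and 440 CPM after DE(a), 391 and 553 after MPS and 113 and 224 after PPS. The part of these markers in the result was not tested. In PM medium the log2 fold change of CDH11 for PPS over DE(a) was -0.31 (SE 0.37) and was not called.

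In LM medium CDH11 was lowest after DE(a), at 133 and 289.5 CPM, against 335 and 587 after APS, 553 and 718 after MPS and 618 and 584 CPM after PPS. Without DE(a)-LM replicate 1 the call among populations in LM medium was lost (adjusted p = 0.173). SOX17 was at 94.8 and 69.6 CPM in DE(a)-LM, 5.06 and 0.806 CPM in APS-LM and 0 and 0.0547 CPM in PPS-LM. FOXA2 was also highest in DE(a)-LM, whereas CXCR4 was at 5.81 and 3.54 CPM there and 9.21 and 10.3 CPM in PPS-LM. The part of these markers in the low CDH11 level was not tested. Compared with its own 24 h population, CDH11 was called higher in 8 of 12 conditions of day 2 and lower in 3, which were DE(b) medium after DE(a), APS and MPS (over all genes, 13.2% of such pairs were called higher and 13.8% lower). After PPS the direction in DE(b) medium was the opposite, with a log2 fold change of 1.29 (SE 0.37).

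CDH24, a type II cadherin with a compact gene, lies on chromosome 14 from position 23047062 to 23057538 on the minus strand. It was present in the control at 32.2 and 22.8 CPM and in every treated library. At 24 h it ranged from 43.1 to 55.6 CPM (median 46.2), above both controls and with no call among the 4 populations, whose largest log2 difference was 0.19. In PM medium it increased from DE(a) to PPS, from 57.4 and 94.5 CPM after DE(a) through 75.6 and 104 after APS and 106 and 127 after MPS to 191 and 214 CPM after PPS. The DE(a) and APS pairs overlapped, the MPS and PPS pairs stood apart, and the log2 fold change of PPS over DE(a) was 1.43 (SE 0.22). In LM medium the order ended at the other side, with 40.6 and 33.5 CPM after PPS below 46.3 and 57.7 CPM after DE(a), though that difference of -0.40 (SE 0.22) was not called. DE(b) medium gave 30.8 and 42.1 CPM after DE(a) and 65.8 and 60.7 CPM after PPS. The call among populations in DE(b) medium was lost without PPS-DE(b) replicate 1 (adjusted p = 0.0516). Over the populations, LM and PM media differed by -1.15 (SE 0.11) log2 units and LM and DE(b) by 0.07 (SE 0.11), the second not called.

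CDH6, a type II cadherin known from kidney and neural development, lies on chromosome 5 from position 31193686 to 31329146 on the plus strand. Its highest means were at 24 h, in MPS, PPS and APS. The control held 4.43 and 3.35 CPM, and at 24 h the level was 1.504 and 2.04 CPM in DE(a), 5.39 and 6.504 in APS, 18.1 and 21.7 in MPS and 8.36 and 11.4 CPM in PPS. MPS libraries stood above all others, and DE(a) libraries below the control, though that difference was not called. The log2 fold change of MPS over APS, which differ in BMP4 and in the CHIR dose, was 1.75 (SE 0.47).

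On day 2 the CDH6 level was called lower than in its own 24 h population in 10 of 12 conditions (over all genes, 13.8% of such pairs were called lower). CDH6 reached a mean of 10 CPM only in MPS at 24 h, so its choice favours such a fall and nothing is read from this count. In DE(b) medium it ranged from 0.303 to 0.886 CPM (median 0.490), below every 24 h library, in PM from 0.612 to 3.28 CPM (median 1.27) and in LM from 1.03 to 5.44 CPM (median 1.54). The highest 48 h level was in MPS-LM, at 5.44 and 4.84 CPM, so that the population with the most CDH6 at 24 h also held the most in LM medium. In DE(b) medium no difference among populations was called, and MPS-DE(b) had fallen by 5.46 log2 units (SE 0.58) from MPS at 24 h. LM against DE(b) medium gave 1.94 (SE 0.27) and the libraries did not overlap. LM against PM medium gave 0.54 (SE 0.25), which was not called with all libraries and was called without DE(a)-PM replicate 2 (adjusted p = 0.0122) or PPS-PM replicate 2 (adjusted p = 0.0153).

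CDH8, a type II cadherin best known from neural circuits, lies on chromosome 16 from position 61647242 to 62037035 on the minus strand. Its control level was 7.83 and 7.83 CPM, and all 24 h libraries were lower, from 0.903 to 7.19 CPM (median 3.20). DE(b) medium returned it to 9.84 and 8.89 CPM after DE(a), 11.3 and 11.0 after APS and 9.96 and 11.0 after MPS, with 3.46 and 5.52 CPM after PPS. In PM medium it was low throughout, from 0.809 to 4.89 CPM (median 2.04). DE(b) against PM medium therefore gave a log2 fold change of 2.20 (SE 0.21), called after each of the 4 populations.

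LM medium separated the populations most for CDH8. DE(a)-LM held 17.9 and 10.5 CPM, APS-LM 4.13 and 2.04, MPS-LM 1.49 and 0.996 and PPS-LM 1.16 and 0.763 CPM. Both DE(a)-LM libraries were above every other LM library, and the log2 fold change of PPS over DE(a) was -3.77 (SE 0.46). CDH8 reached a mean of 10 CPM only in DE(a)-LM, APS-DE(b) and MPS-DE(b), so its choice favours high levels there. DE(a)-LM was also where SOX17 (94.8 and 69.6 CPM) and FOXA2 (34.6 and 28.8 CPM) remained in LM medium. CXCR4, the third endoderm marker, was higher in PPS-LM (9.21 and 10.3 CPM) than in DE(a)-LM (5.81 and 3.54 CPM). The part of these markers in the CDH8 level was not tested. The difference of 0.56 (SE 0.22) between LM and PM media is uncertain, because the call was lost on leaving out any of 9 of the 16 libraries (adjusted p from 0.0544 to 0.137). Calls among populations in PM medium were lost without DE(a)-PM replicate 1 (adjusted p = 0.262), PPS-PM replicate 1 (0.116) or PPS-PM replicate 2 (0.189), and at 24 h without APS-24h replicate 2 (0.0503) or PPS-24h replicate 2 (0.0761).

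CDH10, also a type II cadherin of the nervous system, lies on chromosome 5 from position 24487100 to 24644978 on the minus strand. It was nearly absent from the control, at 0.226 and 0.213 CPM. At 24 h it was 0.829 and 1.23 CPM in DE(a), 0.851 and 0.687 in APS, 2.83 and 0.738 in MPS and 3.26 and 4.76 CPM in PPS. PPS was the only population whose replicates were both above 3 CPM, and without PPS-24h replicate 2 the call among populations was lost (adjusted p = 0.0664). LM medium held the most CDH10 after 3 populations, with 15.1 and 10.9 CPM after APS, 15.1 and 7.38 after MPS and 14.8 and 11.6 CPM after PPS. After DE(a) it held 6.01 and 6.45 CPM, between the 10.5 and 5.44 CPM of the PM libraries. All LM libraries were above all 24 h and all DE(b) libraries, and the populations in LM medium were not called different. LM exceeded DE(b) medium by a log2 fold change of 2.83 (SE 0.25), which was 1.34 (SE 0.23) for LM against PM. Only in LM medium did CDH10 reach a mean of 10 CPM, so its choice favours high levels there. Nothing beyond a description is read from these differences.

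In the other 2 media DE(a) and PPS lay in opposite order for CDH10, with only the DE(b) difference called. In DE(b) medium PPS was highest, 4.49 and 3.40 CPM against 0.887 and 0.756 CPM after DE(a), a log2 fold change of 2.29 (SE 0.50). In PM medium DE(a) was highest, 10.5 and 5.44 CPM against 4.23 and 3.95 CPM after PPS, with a log2 fold change of -0.93 (SE 0.45) that was not called. DE(a)-PM replicate 1, which held the most CDH10 in PM medium, also held 72.7 CPM of SOX17 against 3.75 CPM in replicate 2. FOXA2 went the same way, at 33.0 and 3.37 CPM, and CXCR4 the other way, at 156 and 244 CPM. CDH10 was also higher in replicate 1 after APS, MPS and PPS in PM medium, and SOX17 was at 0 CPM in MPS-PM and PPS-PM. In DE(a)-DE(b), where CDH10 was at 0.887 and 0.756 CPM, SOX17 was at 330 and 440 CPM. The part of these markers in the CDH10 level was not tested. Among populations in DE(b) medium the call was lost without PPS-DE(b) replicate 1 (adjusted p = 0.0870).

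CDH20, a type II cadherin described in the neural tube, lies on chromosome 18 from position 61333430 to 61555779 on the plus strand. In the control it was at 0.497 and 0.372 CPM and at 24 h it ranged from 2.49 to 6.09 CPM (median 3.07), with no call among the 4 populations. It remained in DE(b) medium, from 3.18 to 22.1 CPM (median 6.72), and in PM medium, from 2.27 to 14.1 CPM (median 6.43). In LM medium it was nearly lost after every population. Values there were 0.191 and 0.477 CPM after DE(a), 0.206 and 0 after APS, 0 and 0.0949 after MPS and 0.420 and 1.04 CPM after PPS, and all 8 libraries were below all 24 h, DE(b) and PM libraries. MPS-LM held 0 and 2 counts, at or under the floor of 3 counts per library that was taken as the limit of detection. Relative to this floor, CDH20 was at least 21.9-fold higher in MPS at 24 h, at least 32.8-fold higher in MPS-PM and at least 24.1-fold higher in MPS-DE(b). The bounds cover counting error only.

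The highest CDH20 levels followed PPS, with 22.1 and 18.3 CPM in DE(b) and 14.1 and 9.60 CPM in PM medium, and both pairs stood above every other library of their medium. A mean of 10 CPM was reached only in PPS-DE(b) and PPS-PM, so the choice of CDH20 favours such an excess. Nothing beyond a description is read from the differences of PPS given here. PPS differed from MPS in the same medium by 2.44 (SE 0.56) log2 units in DE(b) and 1.19 (SE 0.54) in PM, the second not called. From PPS at 24 h, CDH20 rose by 2.92 (SE 0.57) log2 units in DE(b) medium and 2.07 (SE 0.55) in PM medium. The call among populations in DE(b) medium was lost without PPS-DE(b) replicate 1 (adjusted p = 0.0863) and that in LM medium without PPS-LM replicate 2 (adjusted p = 0.156). Between DE(b) and PM media CDH20 did not pass the threshold, with 0.34 (SE 0.27).

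CDH10 and CDH20 moved apart in LM medium. Among the day 2 media, CDH10 was highest there except after DE(a), and CDH20 was lowest there after every population. The bases before their start sites are shown for comparison. RefSeq sequences on GRCh38.p14 list 4 of the 8 genes, and for these 2 the start site is the one in GENCODE v44. The windows are the 250 bases upstream, chr5:24644979-24645228 on the minus strand for CDH10 and chr18:61333180-61333429 on the plus strand for CDH20. Neither window overlaps an annotated exon. Capitals mark matches on either strand to CAGAC, a SMAD binding element, the only match among 4 motifs of the pathways and repressors in this system.
CDH10: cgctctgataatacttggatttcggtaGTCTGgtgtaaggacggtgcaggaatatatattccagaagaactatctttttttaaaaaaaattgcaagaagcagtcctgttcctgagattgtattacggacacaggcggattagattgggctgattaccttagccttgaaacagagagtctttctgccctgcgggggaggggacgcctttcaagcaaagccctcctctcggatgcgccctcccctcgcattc
CDH20: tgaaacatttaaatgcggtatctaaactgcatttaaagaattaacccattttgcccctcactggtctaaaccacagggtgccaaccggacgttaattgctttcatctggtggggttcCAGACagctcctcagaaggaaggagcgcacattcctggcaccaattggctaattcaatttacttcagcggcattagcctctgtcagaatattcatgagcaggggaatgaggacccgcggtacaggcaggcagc
Each window held 1 match to CAGAC (or GTCTG on the other strand), as at least 1 did in 38.0% of 35116 listed promoters. The TCF/LEF core CTTTGA, found in 11.2% of these promoters, the E-box CAGGTG that Snail factors bind, found in 17.5%, and the BMP-responsive element GGCGCC, found in 16.4%, matched in neither window. The motifs do not overlap one another. G and C made up 47.6% of the bases for CDH10 and 48% for CDH20, and these matches are a description of letters in a short window and not of binding.

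CDH13, the member without a cytoplasmic tail, is known from vascular endothelium and neurons and lies on chromosome 16 from position 82626965 to 83800640 on the plus strand. Levels were low in the control, 1.99 and 3.03 CPM, and at 24 h, from 0.429 to 2.92 CPM (median 1.503). On day 2 CDH13 was higher after PPS than after DE(a) in every medium. In DE(b) medium it was 1.43 and 0.988 CPM after DE(a), 2.87 and 1.38 after APS, 13.8 and 11.6 after MPS and 60.5 and 47.5 CPM after PPS. Values in LM medium were 7.01 and 8.26 CPM after DE(a), 8.48 and 10.4 after APS, 24.3 and 30.5 after MPS and 51.0 and 42.3 CPM after PPS. In both media the MPS and PPS pairs stood clear of each other and of the pairs of DE(a) and APS. A mean of 10 CPM was reached only after MPS and PPS, in DE(b) and LM medium, so the choice of CDH13 favours this order.

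PM medium gave 0.577 and 0.954 CPM of CDH13 after DE(a), 3.69 and 2.35 after APS, 4.92 and 2.60 after MPS and 10.9 and 2.04 CPM after PPS, and the wide PPS pair overlapped with APS and MPS. PPS exceeded DE(a) for CDH13 by 5.51 (SE 0.59) log2 units in DE(b), 3.10 (SE 0.57) in PM and 2.70 (SE 0.50) in LM medium, all called, against 1.56 (SE 0.60) at 24 h, which was not. Without DE(a)-PM replicate 1 the call among populations in PM medium was lost (adjusted p = 0.117). LM medium exceeded PM medium by 2.74 (SE 0.26) log2 units over the populations. Endothelial markers summed to between 336 and 1579 CPM in LM medium and to at most 137 CPM in PM medium, nearly all of it KDR and TEK. Their sum was 190 and 235 CPM in the control. Within LM medium it was 1009 and 1579 CPM in APS-LM and 336 and 405 CPM in PPS-LM, whereas CDH13 was higher in PPS-LM than in APS-LM. The other endothelial markers, PECAM1 and CDH5, were at most 1.05 and 0.764 CPM in LM libraries. In PPS-DE(b), where CDH13 was highest, they were at 0.240 and 0.182 CPM (PECAM1) and 0.192 and 0.425 CPM (CDH5). The part of these markers in the CDH13 level was not tested.

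**Figure D2:**
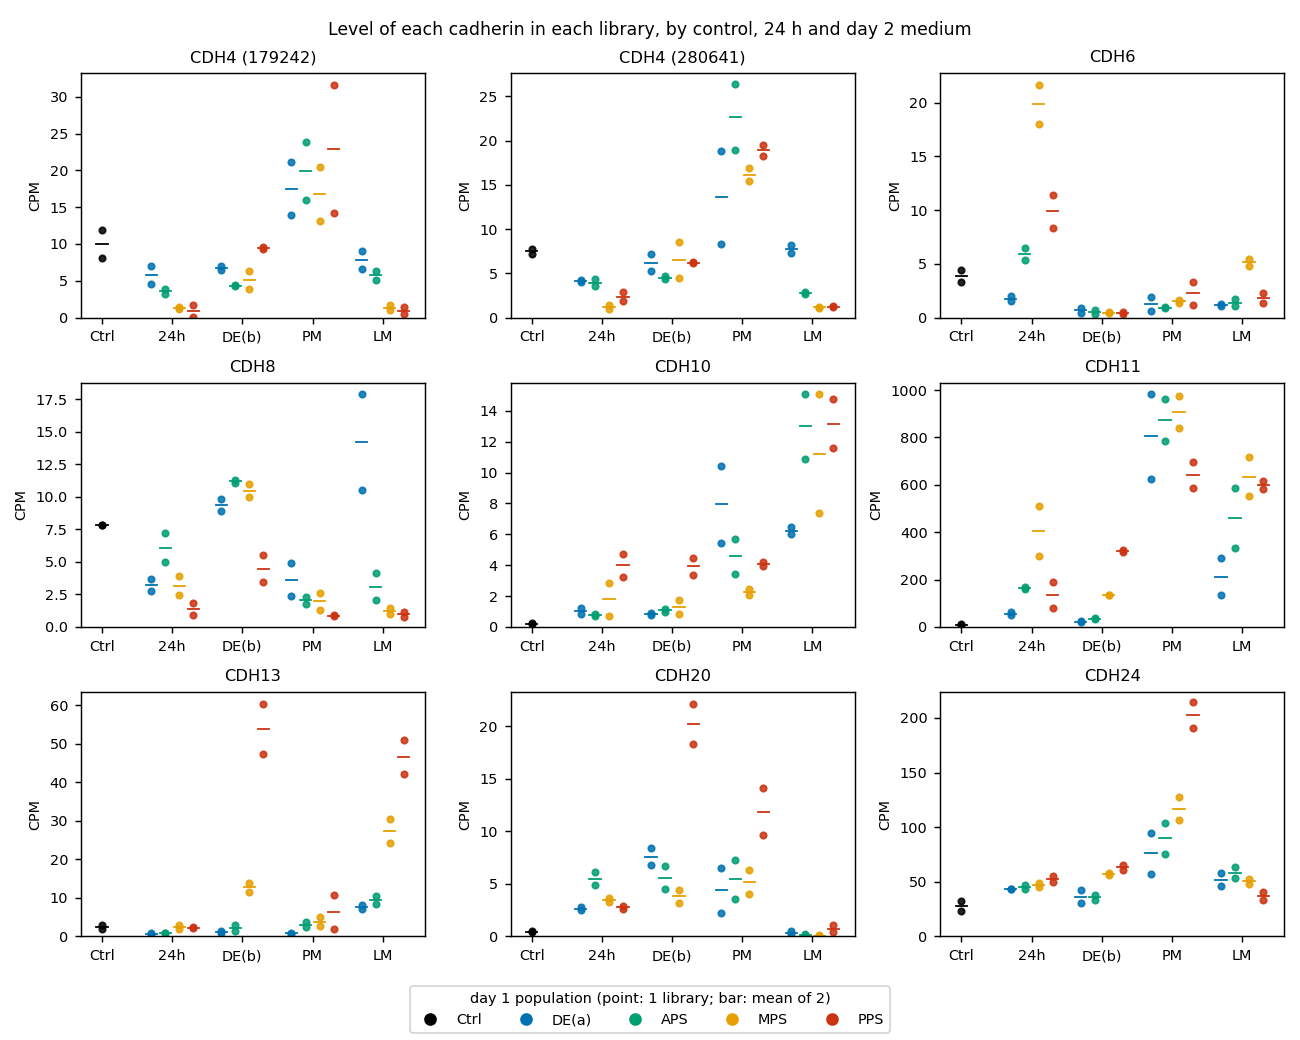
Level of each cadherin identifier in each library (vertical axes, CPM from 0) for the control, 24 h and the 3 day 2 media (horizontal axes), coloured by day 1 population, with points for libraries and bars for means of 2. CDH13 rises from DE(a) to PPS in DE(b) and LM medium, CDH24 rises so in PM medium, and CDH4 and CDH8 fall from DE(a) to PPS in LM medium.

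To compare the media as a whole, differences were averaged over the 4 day 1 populations, 8 libraries a medium. In LM against PM medium 8 of 9 identifiers were called, beside 42% of all genes tested, with CDH8, CDH10 and CDH13 higher and CDH4, CDH11, CDH20 and CDH24 lower. In DE(b) against PM medium 8 were called, beside 43% of all genes, with CDH8 and CDH13 higher and CDH4, CDH6, CDH10, CDH11 and CDH24 lower. In LM against DE(b) medium 8 were called, beside 39.6% of all genes. There CDH6, CDH10, CDH11 and CDH13 were higher, and CDH4, CDH8 and CDH20 lower. As the members were chosen by level, nothing is read from the excess of these counts over those shares. The directions are means and did not hold after every population. For example, CDH8 was at 1.25 CPM in MPS-LM and 1.96 in MPS-PM, and CDH10 at 6.23 in DE(a)-LM and 7.95 in DE(a)-PM. CDH13 was at 2.12 CPM in APS-DE(b) and 3.02 in APS-PM. CDH8 was at 14.2 CPM in DE(a)-LM and 9.37 in DE(a)-DE(b). The type II genes did not share a direction, as the plot of media differences shows. On average CDH10 rose from PM to LM medium while CDH11, CDH20 and CDH24 fell.

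**Figure D3:**
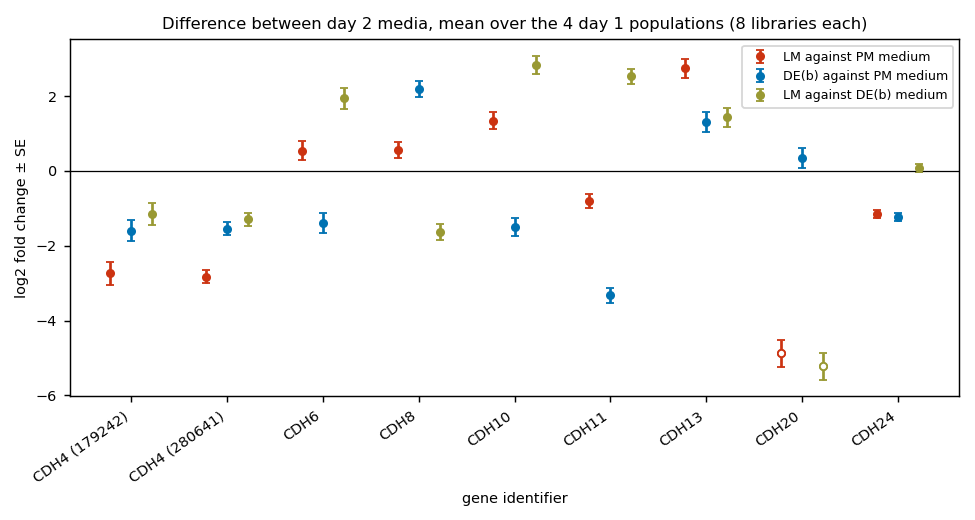
Log2 fold change (vertical axis, error bars 1 SE) of each cadherin identifier (horizontal axis) between day 2 media, averaged over 4 day 1 populations with 8 libraries per medium. Open points for CDH20 involve LM libraries near 0 counts, where the fitted size depends on the prior count of the model, while all 8 LM libraries were below all PM and DE(b) libraries.

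For the effect of day 1, differences among the 4 populations were called for 6 of 9 identifiers at 24 h, beside 18.8% of all genes tested, for 5 in DE(b) medium, beside 16.6%, for 3 in PM medium, beside 7.47%, and for 7 in LM medium, beside 19.6%. CDH24 was called in DE(b) and PM medium, CDH13 in all 3 media and CDH6 at 24 h and in LM medium. CDH20 was called in DE(b) and LM medium and not at 24 h, where only DE(a) and PPS overlapped and APS was highest, at 4.84 and 6.09 CPM. Whether the effect of day 1 depended on the medium was asked with the interaction over the 12 conditions of day 2, which was called for 7 identifiers, beside 13.1% of all genes. CDH6 and CDH20 were not called. Between PPS and DE(a), 17 of 36 pairs of an identifier and a setting (24 h and 3 media) were called, beside 15.3% of such pairs over all genes. CDH4 counts as 2 identifiers in all of these. Because the members were chosen by level, nothing is read from the excess of these counts over the shares of all genes. The plot of PPS against DE(a) shows the sizes: for CDH11 they were 3.86 (SE 0.42) in DE(b), -0.31 (SE 0.37) in PM and 1.59 (SE 0.38) in LM medium.

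**Figure D4:**
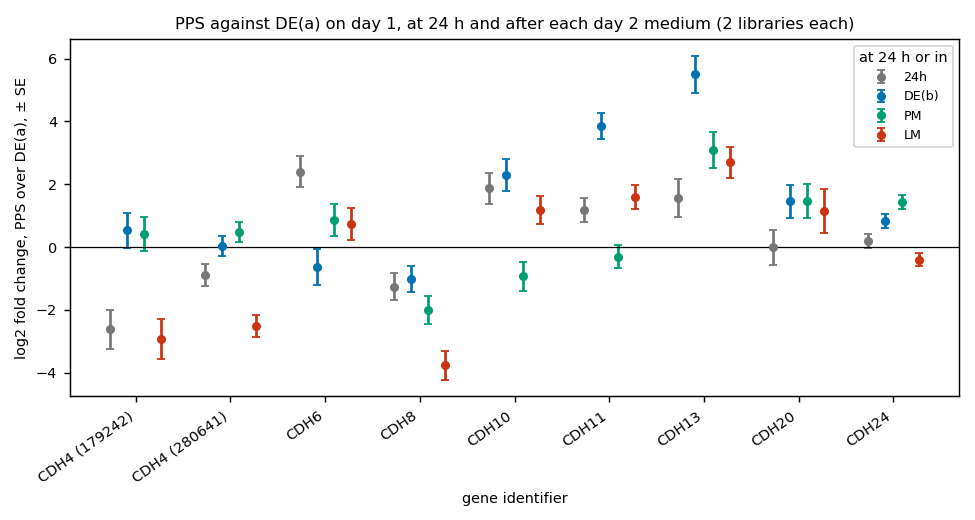
Log2 fold change of PPS over DE(a) (vertical axis, error bars 1 SE) for each cadherin identifier (horizontal axis) at 24 h and in DE(b), PM and LM medium, with 2 libraries per condition. CDH13 lies above 0 in all 4 settings and CDH8 below 0 in all 4, while CDH11 lies far above 0 in DE(b) medium and near 0 in PM medium.

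Set beside the 3 cadherins most studied in the PS, the members followed none of them throughout. CDH1 (E-cadherin) was higher in LM than in PM medium by 1.56 log2 units (SE 0.13), and CDH3 (P-cadherin) by 0.90 (SE 0.10). CDH2 (N-cadherin) was lower in LM than in PM medium by a log2 fold change of -1.44 (SE 0.08), the direction also of CDH4, CDH11, CDH20 and CDH24. Against PM medium, DE(b) medium raised CDH2 by 0.67 (SE 0.07), whereas CDH4, CDH11 and CDH24 were lower there. All of these differences were called.

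Other genes of cadherin adhesion were taken from fixed lists, whose counts of calls stand beside 42% of all genes called in LM and 43% in DE(b) against PM medium. Of 7 further type II cadherins 5 could be tested, and 3 were called higher and 0 lower in LM against PM medium, with a median log2 fold change of 0.88 beside 0.00 over all genes. These were CDH18 at 6.03 (SE 1.103), CDH22 at 2.11 (SE 0.51) and CDH7 at 0.88 (SE 0.30), all below 10 CPM in every condition. In DE(b) against PM medium CDH18 at 2.91 (SE 1.09), CDH22 at 1.55 (SE 0.50) and CDH5 were higher and CDH7 lower at -1.72 (SE 0.33). Of 6 other cadherin identifiers tested, 1 was higher and 1 lower in each comparison. Those higher were CDH23 at 0.76 (SE 0.26) in LM and CDHR3 at 0.89 (SE 0.23) in DE(b) medium, and CDHR1 was lower in both, at -1.39 (SE 0.17) in LM and -1.23 (SE 0.17) in DE(b) medium.

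Of 13 catenins and junction plaque proteins, which tie cadherin tails to the cytoskeleton, 5 were called higher and 2 lower in LM against PM medium (median 0.11), again beside 42% of all genes called in either direction. PKP2 rose by 2.91 (SE 0.12) and CTNND2, a neural relative of p120 catenin, by 2.34 (SE 0.15), while ARVCF changed by -0.84 (SE 0.19). In DE(b) medium 4 were higher and 2 lower (median 0.20), beside 43% of all genes, among them PKP2 at 1.79 (SE 0.11), JUP (plakoglobin) at 0.55 (SE 0.15) and PKP4 at -0.54 (SE 0.08). Of 11 genes of cadherin processing, the proteases that mature or cleave cadherins, 5 were higher and 3 lower in LM medium (median 0.19, beside 42% of all genes called) and 6 higher and 3 lower in DE(b) medium (median 0.19, beside 43%). The proprotein convertase PCSK5 was far lower in both, at -4.09 (SE 0.19) and -4.01 (SE 0.19), whereas its relative FURIN was higher at 1.73 (SE 0.10) and 0.65 (SE 0.10). PSEN2, a subunit of gamma-secretase, fell in LM medium (-1.37, SE 0.14) and the sheddase ADAM15 in DE(b) medium (-0.74, SE 0.10). Among 4 nectins, the immunoglobulin-like adhesion proteins that act beside cadherins, NECTIN2 was higher and NECTIN1 lower in both media, at 1.29 (SE 0.11) and -1.11 (SE 0.10) in LM and 0.88 (SE 0.11) and -0.87 (SE 0.10) in DE(b), and NECTIN4 was lower in DE(b) medium, at -3.15 (SE 0.35).

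Genes whose pattern was most like each member were named by the Pearson correlation over the 17 condition means of log2(CPM + 1), among 12263 genes that reached 10 CPM. For CDH11 these were ZEB2 (0.98), a repressor of CDH1, then UNC5C (0.93) and PRTG (0.93). CDH24 was most like ACTA2 (0.94), a smooth muscle actin, BTBD1 (0.93) and C1QL4 (0.92). The 2 CDH4 identifiers were most like each other (0.95), followed by ABI2 for both (0.89 and 0.92) and by NLGN1 (0.89) for the first and ABCG1 (0.91) for the second. CDH10 was most like DPF3 (0.93), EFNB1 (0.92) and TRPV2 (0.91), and CDH8 like ADCY8 (0.91), TAFA5 (0.90) and CALB1 (0.90). Less close were the nearest genes of CDH6, which were USP12 (0.91), PIK3C2A (0.87) and CHN1 (0.86), of CDH13, which were SKA2 (0.88), TENT5A (0.86) and PTPRE (0.86), and of CDH20, which were CELF1, SCD5 and ELOVL2 (each 0.88). With 17 points and this many genes, high values are found for many patterns, and the points share libraries.

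In the order of the 17 levels, most neighbours could not be separated. For each identifier, from 10 to 13 of the 16 pairs of neighbouring conditions had overlapping replicates. For CDH11 the 9 highest conditions, from 907 CPM in MPS-PM to 319 CPM in PPS-DE(b), each overlapped with the next. CDH20 in PPS-DE(b), PPS-PM and DE(a)-DE(b), by contrast, each stood above the next condition, at means of 20.2, 11.9 and 7.59 CPM.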

How the data were processed

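RNA was poly(A)-selected and sequenced from 34 libraries, 2 per condition, with all first replicates in one table and all second replicates in another. Per the labels, the authors used Salmon 1.10.2 and R 4.4.2 on a GRCh38 transcriptome. The deposited values are estimated counts summed per gene, with no normalization for depth or length, so levels are compared within a gene and not between genes. Every count column was matched (0 left over). The members, gene lists and tests were chosen with earlier results of these data known.

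CPM values are counts scaled by the library total, from 15522780 to 23439799 (median 19341117), where a floor of 3 counts is worth 0.128 to 0.193 CPM and covers counting error only. Estimated counts were rounded and tested with edgeR 4.0.16 in R 4.3.3: TMM, filterByExpr by condition (17895 of 37951 genes, all 9 member identifiers among them), 1 mean per condition over 34 libraries with 17 residual degrees of freedom, quasi-likelihood tests and Benjamini-Hochberg adjustment over all genes tested at 0.05. Media were compared by the mean over 4 populations, and populations by F tests within 24 h and each medium. Folds are on the log2 scale with SE from this fit.

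The genes named are all member identifiers, CDH1, CDH2 and CDH3 where set beside them, the 3 genes most correlated with each member among those reaching 10 CPM, and in each adhesion list the 3 largest called changes in LM and DE(b) against PM medium, leaving out CDH5, for which no fold is given because it rests on libraries at 0 counts. Markers were printed from fixed lists, of which those of pluripotent cells, primitive streak, neural ectoderm and blood are not described further. Markers of pluripotent cells summed to 2919 and 3141 CPM in the control, primitive streak markers to between 1574 and 2955 CPM at 24 h, neural ectoderm markers (nearly all NES) to between 274 and 943 CPM over all libraries, and blood markers to at most 34.3 CPM. Alternatives were RLE size factors, no filter, a replicate block, only the libraries compared, DESeq2 1.42.0, a fold change of at least 2, and each library left out in turn, which kept the filter and dispersion trend of the full fit. Replicates correlated at 0.969 to 0.988 over 14647 genes.

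The fit was tested on simulated data for 17895 genes. For LM against PM medium, it called 86% of genes changed by 1 log2 unit and 93% of those changed by 2, with 7 unchanged genes called. For PPS-LM against MPS-LM, with 2 libraries a side, it called 15% and 75%, with 2 unchanged genes called.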

Additional observations from a re-analysis of the deposited data

Results flagged for a closer look

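For 7 identifiers the difference among the day 1 populations was not the same in the 3 day 2 media, by the interaction term of edgeR's quasi-likelihood fit over the 12 conditions of day 2, adjusted over all genes. Of all genes tested 13.1% were called, and as the members were chosen by level nothing is read from the count. The adjusted p was 0.000114 for CDH11, 0.00032 for the second CDH4 identifier (ENSG00000280641), 0.00178 for CDH24, 0.00442 for CDH8, 0.00700 for CDH10, 0.0097 for CDH13 and 0.0203 for the first CDH4 identifier (ENSG00000179242). The last was lost without PPS-LM replicate 1 (adjusted p = 0.0947). Each interaction term set the difference of a population from DE(a) in DE(b) or LM medium against that in PM medium. The spread from the lowest to the highest term, with no difference also included, can mix populations and media. It was 4.17 log2 units for CDH11, 4.03 for CDH13, 3.59 for CDH8, 3.46 and 3.01 for the first and second CDH4 identifiers, 3.23 for CDH10 and 1.85 for CDH24. CDH6 was called without DE(a)-PM replicate 1, DE(a)-PM replicate 2 or PPS-PM replicate 1 (adjusted p from 0.0222 to 0.0313) and not with all libraries (0.0768). FOXA2 and SOX17 were lower after PPS than after DE(a) in every day 2 medium, PM medium included. CXCR4 was lower after PPS in DE(b) medium and higher in LM and PM medium. The sum of the amnion markers was highest in PPS-LM among LM conditions, followed by DE(a)-LM, which held the highest mean of GATA3. The part of these markers in the differences was not tested.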

How the results depend on the processing

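Counts of member identifiers called kept within 1.5 times the reported count under RLE size factors, DESeq2, the fold change of at least 2 and the replicate block. Without the filter, 5 identifiers instead of 3 were called among populations in PM medium (CDH10 and CDH20 gained). With only the libraries compared, 0 were called in PM medium (4 at an unadjusted p under 0.05 in the same edgeR fit, and 4 called by DESeq2 over all libraries) and 2 instead of 6 at 24 h (8 unadjusted), fits with 8 libraries. Over all genes, these fits called 272 of 16191 in PM medium and 1904 of 16271 at 24 h, beside 1337 and 3359 of 17895 in the full fit. Leaving out each library in turn gave from 56 to 70 pairs higher and 22 to 32 lower than control, from 4 to 6 identifiers at 24 h, 2 to 5 in DE(b), 1 to 3 in PM and 6 to 7 in LM medium, 6 to 8 for the interaction, 7 to 8 for LM against PM, and 8 throughout for DE(b) against PM and LM against DE(b) medium. The lowest counts were 2 in DE(b) medium without PPS-DE(b) replicate 1, and 1 in PM medium without DE(a)-PM replicate 1. All 9 identifiers reached 10 CPM in either replicate alone and with TMM library sizes.

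Deviations of same-numbered libraries from their condition means correlated from -0.196 to 0.569 over 136 pairs of conditions (median 0.162), and 96 of the 136 were over 0.1. Not every pair was, and no label says what a replicate number shares, so the numbers were not taken as a pairing. A shared replicate difference was present in PM medium, where after all 4 populations CDH11, CDH24, CDH6 and both CDH4 identifiers were higher in replicate 2 and CDH8 and CDH10 were higher in replicate 1. A replicate block gave 70 pairs higher and 31 lower than control, 7 identifiers at 24 h (CDH13 gained), 4 in PM medium (CDH10 gained), 5 in DE(b) and 7 in LM medium, 7 for the interaction and 8 for each pair of media. Of 531 single contrasts the block gained 14 calls and lost 0, DESeq2 gained 20 and lost 0, and RLE gained 1 and lost 1 (CDH11 in PPS-DE(b) against MPS-DE(b), adjusted p = 0.0517). No direction reversed in these alternatives. For the adhesion lists, RLE moved 1 of 42 counts by over 1.5 times, the block 6 and no filter 7. Depth limits CDH20 in LM medium and CDH10 in the control, at a few counts per library. A difference of 1 log2 unit between 2 conditions is often missed with 2 replicates.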
